A study of Homo sapiens with 12 samples.

Results

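The oncofetal let-7 axis examined here is a set of 8 genes: the chromatin architectural gene HMGA2, its paralog HMGA1, the let-7 antagonist LIN28B, the 3 insulin-like growth factor 2 mRNA-binding proteins IGF2BP1, IGF2BP2 and IGF2BP3, the transcription factor ARID3B and the microRNA-processing enzyme DICER1. They were taken by symbol from the count tables of 2 human lines of neoplastic B cells, MEC1 and JVM2, which list 23533 genes between them. Of the 8 genes, 4 were listed in both tables, 3 (HMGA2, IGF2BP1 and IGF2BP2) in the MEC1 table alone and 1 (LIN28B) in the JVM2 table alone. The set was chosen by a measured value, the rise of HMGA2 by more than 30-fold in MEC1 cells with UGT2B17. The counts of HMGA2 in MEC1 are therefore given as a description, with no test, and the question put to the data was whether the other 7 genes moved with it in either line.

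Total RNA of 4 stable cell populations was sequenced, with 3 biological replicates of each. MEC1-2B17 and JVM2-2B17 cells were electroporated with the pcDNA6 vector carrying the coding sequence of UGT2B17, an enzyme that conjugates steroids and other lipids to glucuronic acid, and were kept in blasticidin. JVM2-CTRL cells carried empty pcDNA6 and were kept in blasticidin as well, whereas MEC1-CTRL cells carried an shRNA against UGT2B17 and were kept in puromycin. The MEC1 populations therefore differed in construct, in selection and in the level of UGT2B17, and the effects of these cannot be told apart. Whether a population descended from 1 clone or from many was not given in the sources used here, and each population is a single stable line. How MEC1-CTRL received its shRNA is not given in the sources used here. P-values therefore measure the spread between replicates of a line and not between lines made separately.

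LIN28A and LIN28B are RNA-binding proteins of embryonic cells that bind the precursors of the let-7 microRNAs and prevent their maturation. Mature let-7 in turn binds the 3′ untranslated regions (UTRs) of mRNAs such as HMGA2, LIN28B, the IGF2BP genes and TRIM71, and lowers their levels as cells differentiate. HMGA2 and IGF2BP1 are abundant in the embryo, nearly silent in most adult tissues and present again in many tumors, which is the meaning of the word oncofetal. In the B lineage, the LIN28B and let-7 switch is known for setting apart fetal from adult lymphopoiesis.

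The let-7 family recognizes its targets through the seed, bases 2 to 8 of the mature microRNA. The 12 human let-7 and miR-98 loci gave 9 different mature sequences (RefSeq, GRCh38.p14), and all 12 had the same seed, GAGGUAG. The sequences below are those whose precursor gene was listed in the MEC1 table, with the seed in capitals.
hsa-let-7a-5p: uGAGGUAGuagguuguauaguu
hsa-let-7c-5p: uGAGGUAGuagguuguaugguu
hsa-let-7d-5p: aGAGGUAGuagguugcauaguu
hsa-let-7f-5p: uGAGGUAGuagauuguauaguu
hsa-let-7g-5p: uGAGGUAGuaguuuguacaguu
hsa-let-7i-5p: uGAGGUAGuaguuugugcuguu
hsa-miR-98-5p: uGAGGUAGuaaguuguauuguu

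The complement of that seed, CTACCTC, was searched on the transcript strand in the 3′ UTRs of the canonical transcripts of 19925 protein-coding genes (GENCODE v44, GRCh38). At least 1 match was present in 9.58% of these genes, 2 or more in 1.12% and 3 or more in 0.181%. HMGA2, IGF2BP1 and LIN28B held 4 matches each, a number reached by 12 genes in all, or 0.0602%. IGF2BP2, IGF2BP3, HMGA1 and ARID3B held 1 match each, and the 3′ UTR of DICER1 held none. TRIM71, which encodes an embryonic RNA-binding ubiquitin ligase outside the set, held 6. Of the matches, 1 in HMGA2, 3 in IGF2BP1, 2 in LIN28B, 4 in TRIM71 and the single ones in IGF2BP2 and IGF2BP3 were followed by an A, which makes the longer 8-base match. A match is a string of letters and not a measured binding site. The matches of the genes that the results turn on are shown in windows of 30 bases, all 4 for HMGA2 and LIN28B and the first alone for IGF2BP1 and TRIM71, 5′ to 3′ on the transcript, with the match in capitals.
HMGA2 site 1 (chr12:65963293-65963322, plus strand): ggggcgccaacgttcgatttCTACCTCagc
HMGA2 site 2 (chr12:65964528-65964557, plus strand): tatatccccactactcaataCTACCTCtga
HMGA2 site 3 (chr12:65964940-65964969, plus strand): actaattgacttgcaaagacCTACCTCcag
HMGA2 site 4 (chr12:65965793-65965822, plus strand): tgtacaatcaaaacacactaCTACCTCtta
LIN28B site 1 (chr6:105078807-105078836, plus strand): cctttacccggttgcaaagtCTACCTCatg
LIN28B site 2 (chr6:105081234-105081263, plus strand): ttatgtactgatgatagtaaCTACCTCtga
LIN28B site 3 (chr6:105081416-105081445, plus strand): actctgtttacagcaaaaggCTACCTCata
LIN28B site 4 (chr6:105082855-105082884, plus strand): cttgaaaatgatggtgttgaCTACCTCttg
IGF2BP1 site 1 (chr17:49051056-49051085, plus strand): aatgctgtgtgcgaagtaaaCTACCTCaag
IGF2BP2 site 1 (chr3:185644218-185644247, minus strand): agaaaaacacacagaagaagCTACCTCagg
IGF2BP3 site 1 (chr7:23311793-23311822, minus strand): aaacgtgcatttttactcaaCTACCTCagg
TRIM71 site 1 (chr3:32891963-32891992, plus strand): agtacaacattgcttaagtcCTACCTCatc

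HMGA2 was nearly silent in MEC1-CTRL cells and clearly present in MEC1-2B17 cells. HMGA2 (ENSG00000149948, chr12:65824460-65966291) encodes a high mobility group protein that binds AT-rich DNA. The 3 MEC1-CTRL replicates held 24, 21 and 19 reads of it, and the 3 MEC1-2B17 replicates held 730, 778 and 742. The lowest 2B17 replicate thus lay far above the highest control. Mean levels were 0.605 ± 0.0298 CPM (counts-per-million of the library; SD, n = 3) for MEC1-CTRL and 23.0 ± 1.17 for MEC1-2B17 cells, a fitted log2 fold change of 5.23 (SE 0.11), or 37.7-fold. The ratio of the pooled counts, 2250 against 64, was 37.9 with a 95% counting interval of 29.5 to 49.3. These are the values that chose the set. HMGA2 was not in the JVM2 table, whose genes all had at least 10 counts over the 6 libraries. A gene left out by that minimum could have had at most 9 reads, or 0.152 CPM over the JVM2 libraries. Why a given gene is not in a table is not stated in the sources used here, so this limit holds only if the minimum was the reason, for HMGA2 and for the other genes found in 1 table.

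HMGA1, the paralog with the same kind of DNA-binding motif, was abundant and did not pass the test in either line. In MEC1 its replicates held 19776, 17507 and 17898 reads in CTRL and 17447, 16615 and 17520 in 2B17 cells, with overlapping CPM (523 ± 15.4 and 526 ± 23.3; SD, n = 3). The log2 fold change was 0.01 (SE 0.037, edgeR quasi-likelihood adjusted P = 0.86). In JVM2 the reads were 4519, 4678 and 3966 in CTRL and 5343, 3273 and 4141 in 2B17 cells. The JVM2-2B17 replicates, at 484, 369 and 468 CPM, lay on both sides of the controls, and the log2 fold change was 0.02 (SE 0.087, edgeR adjusted P = 0.92). Replicate 2 of JVM2-2B17 was the low one. Without it the log2 fold change of HMGA1 was 0.13 with an adjusted P of 0.041, in a range of 0.041 to 0.98 over 14 alternatives. Per kilobase of canonical transcript, HMGA1 stood at 272 and 274 CPM in MEC1-CTRL and MEC1-2B17 cells, whereas HMGA2 stood at 0.147 and 5.57 CPM. HMGA1 therefore remained the more abundant paralog in the MEC1-2B17 population. HMGA1 has processed pseudogenes, and how reads shared with them were counted is not known.

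LIN28B moved in JVM2 and in the opposite direction to HMGA2 in MEC1. LIN28B (ENSG00000187772, chr6:104936616-105083332) held 139, 201 and 204 reads in the JVM2-CTRL replicates and 4, 3 and 4 in the JVM2-2B17 replicates. Every control was far above every 2B17 replicate. Its mean level was 18.1 ± 3.94 CPM in JVM2-CTRL and 0.384 ± 0.0604 CPM in JVM2-2B17 cells (SD, n = 3). On the log2 scale LIN28B fell by 5.51 (SE 0.29), to a level 45.7-fold lower (edgeR adjusted P = 4.2e-08). From the pooled counts of 544 and 11 the ratio was 47.1, with a 95% counting interval of 26.1 to 95. LIN28B was not in the MEC1 table, where the minimum of 10 reads would leave out a gene with up to 9 reads, or 0.0441 CPM over the 6 libraries, with the same reservation. LIN28A was in neither table. HMGA2 and LIN28B were thus not listed together in either line, and a joint change of the pair could not be examined within a line.

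The 3 IGF2BP genes were each higher in MEC1-2B17 than in MEC1-CTRL cells, by different amounts. These proteins bind and stabilize mRNAs that include MYC, IGF2 and HMGA transcripts. IGF2BP2 (chr3:185643130-185825042), the member that adult tissues retain, held 1115, 944 and 1017 reads in MEC1-CTRL and 1858, 1814 and 1779 in MEC1-2B17 cells. The populations did not overlap, and means were 29.1 ± 1.61 and 55.6 ± 0.541 CPM (SD, n = 3). The log2 fold change of IGF2BP2 was 0.93 (SE 0.048), or 1.91-fold (edgeR adjusted P = 1.8e-11).

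IGF2BP3 (chr7:23310209-23470491), an oncofetal protein found in many leukemias, was already abundant in MEC1. Its reads were 8328, 7484 and 6951 in MEC1-CTRL and 8917, 8825 and 8237 in MEC1-2B17 cells. In CPM the populations did not overlap (215 ± 5.17 and 265 ± 5.28; SD, n = 3), and the log2 fold change of 0.30 (SE 0.035) was a 1.23-fold rise (edgeR adjusted P = 1.3e-06). IGF2BP1 (chr17:48997385-49056145), the member most restricted to the embryo, was close to silent. It held 3 reads in each MEC1-CTRL replicate and 10, 16 and 16 in the MEC1-2B17 replicates, without overlap. It did not pass the filter on low counts and so has no test in the fit. Its pooled counts of 42 and 9 gave a ratio of 5.02 with a 95% counting interval of 2.41 to 11.7. Without the filter its log2 fold change was 2.28 with an edgeR adjusted P of 3.4e-04. The adjusted P ranged from 2.0e-04 to 0.0027 over the 7 alternatives in which it could be tested. Where the filter applied, it passed only through the 2B17 libraries, where it is high, so that those P-values are no support.

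In JVM2, IGF2BP3 went the other way. The JVM2-CTRL replicates held 19, 26 and 16 reads and the JVM2-2B17 replicates 1, 0 and 0. Means were 2.01 ± 0.376 and 0.0302 ± 0.0523 CPM (SD, n = 3), and IGF2BP3 fell by 5.42 on the log2 scale (SE 0.61, edgeR adjusted P = 3.3e-05). The pooled counts of 61 and 1 gave a ratio of 58.1, which counting error alone placed anywhere between 10 and 2333. The opposite directions in the lines held up in the test of the difference itself: the effect in MEC1 minus that in JVM2 was 5.97 (SE 0.51, edgeR interaction of line and population, adjusted P = 1.5e-08). Both values rest on the single read in JVM2-2B17: without replicate 1, which held it, the log2 fold change in JVM2 was -7.28 and the difference 8.96, while the other replicates left out gave -5.52 to -5.02 and 5.49 to 6.07. With no read left in JVM2-2B17 the fitted value depends on the prior count and is no bound. The lines also started from different levels. IGF2BP3 stood at 50.4 CPM per kilobase in MEC1-CTRL and 0.469 in JVM2-CTRL cells, values from tables scaled separately and not tested. IGF2BP1 and IGF2BP2 were not in the JVM2 table.

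ARID3B and DICER1 moved little. ARID3B (chr15:74541206-74598131), an AT-rich interaction domain factor reported as a let-7 target, averaged 50.8 ± 1.28 CPM in MEC1-CTRL and 54.5 ± 2.94 in MEC1-2B17 cells (SD, n = 3). The MEC1 replicates overlapped, with a log2 fold change of 0.10 (SE 0.046, edgeR adjusted P = 0.093). Without replicate 2 of MEC1-2B17 the value was 0.14 and the adjusted P 0.039, in a range of 0.039 to 0.34 over 14 alternatives. In JVM2 ARID3B held 470, 514 and 432 reads in CTRL and 476, 284 and 419 in 2B17 cells, and its log2 fold change was -0.20 (SE 0.11, edgeR adjusted P = 0.22). Replicate 2 of JVM2-2B17 was again the lowest, and without it the log2 fold change of ARID3B was -0.05.

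DICER1 (chr14:95086228-95158010) encodes the nuclease that cuts microRNA precursors, let-7 among them, and is itself a reported let-7 target. In MEC1 it held 4551, 3855 and 4058 reads in CTRL and 3985, 4208 and 3682 in 2B17 cells, which overlap in CPM (log2 fold change 0.04, SE 0.041, edgeR adjusted P = 0.52). In JVM2 it held 1255, 1399 and 1295 reads in CTRL and 1282, 959 and 1005 in 2B17 cells. Scaled to CPM, the 3 JVM2-CTRL replicates (125, 131 and 137) all lay above the 3 JVM2-2B17 replicates (116, 108 and 114). DICER1 fell by 0.22 on the log2 scale (SE 0.061, edgeR adjusted P = 0.018). That call was lost without replicate 2 of JVM2-CTRL (adjusted P = 0.062) and without replicate 3 (log2 fold change -0.18, adjusted P = 0.11), in a range of 0.011 to 0.11 over 14 alternatives. The effects on DICER1 in the lines differed by 0.26 (SE 0.079, edgeR interaction adjusted P = 0.016). This adjusted P ranged from 0.013 to 0.057 over 17 alternatives and passed 0.05 without replicate 2 of MEC1-CTRL (0.056), replicate 2 of MEC1-2B17 (0.053) or replicate 3 of JVM2-CTRL (0.057). The differences for ARID3B (0.30, SE 0.12, adjusted P = 0.06) and HMGA1 (-0.00, SE 0.098, adjusted P = 1) did not pass the same test.

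**Figure D1:**
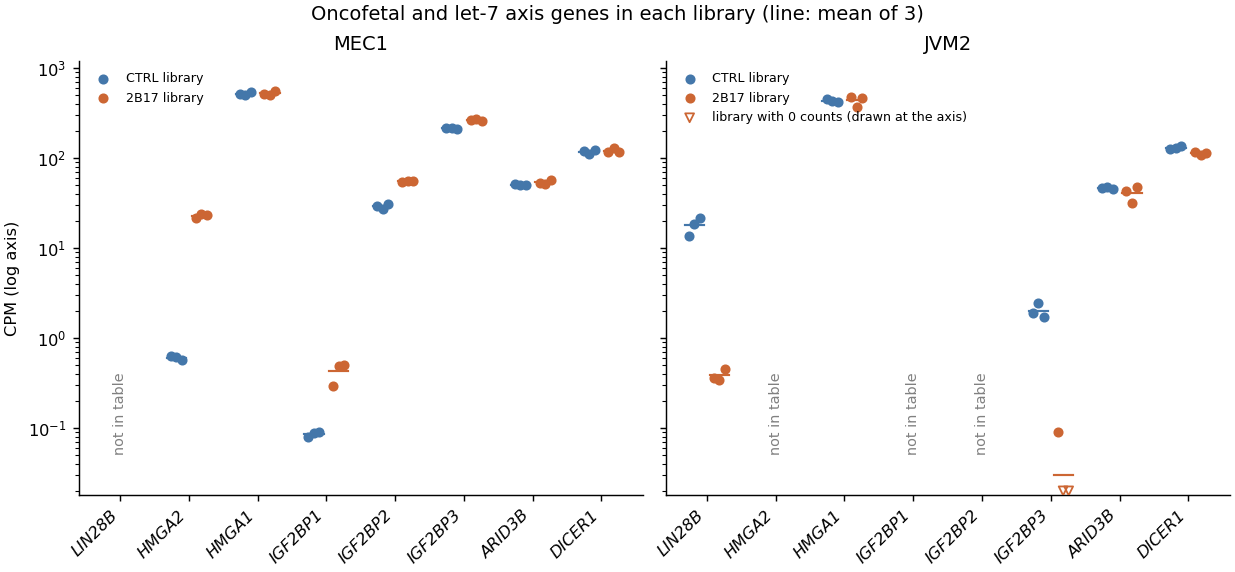
CPM (log axis) of the 8 genes in each library of MEC1 (left) and JVM2 (right), with CTRL libraries in blue, 2B17 libraries in orange and the mean of 3 as a line; the open triangles are the 2 libraries with 0 counts of IGF2BP3, and a gene missing from a table is marked. HMGA2 at 0.605 and 23.0 CPM in MEC1 and LIN28B at 18.1 and 0.384 CPM in JVM2 show the wide gaps, while HMGA1 lies at 523 and 526 CPM in the MEC1 populations.

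In all, 2 of the 5 other genes tested in MEC1 passed the threshold, both of them higher (IGF2BP2 and IGF2BP3). None was lower, also by DESeq2, by the exact test of edgeR or at an unadjusted quasi-likelihood P below 0.05. Among all 16581 genes tested in MEC1, 41.7% passed, namely 20.0% in the higher and 21.6% in the lower direction. Of the 5 genes tested in JVM2, 3 passed, all lower (LIN28B, IGF2BP3 and DICER1), against 29.3% of 13021 genes, 14.1% higher and 15.3% lower. LIN28B and IGF2BP3 passed the count filter there only through the CTRL libraries, where they are high. For these genes being tested and being lower are thus linked, and the call of DICER1 was lost in some alternatives, as given above. None was higher in JVM2 by any of those measures. In the test between the lines 2 of the 4 genes passed (IGF2BP3 and DICER1), against 32.0% of 15130 genes. With this many genes changed in each line and so few genes in the set, the counts do not set it apart from the background. Over the 5 genes the middle log2 fold change was 0.10 for MEC1 and -0.22 for JVM2, beside a median of 0.00 for all genes tested in each line.

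**Figure D2:**
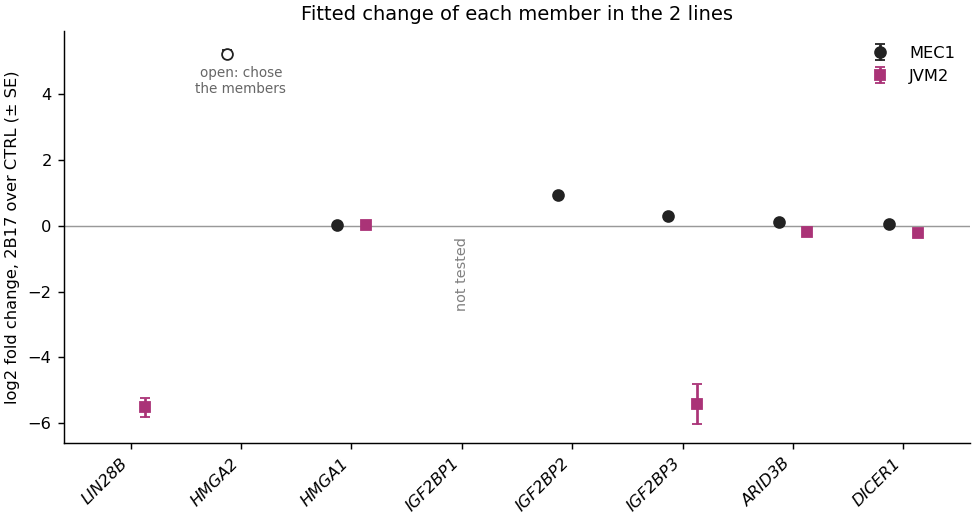
Fitted log2 fold change of 2B17 over CTRL for each gene, with bars of 1 SE, in MEC1 (circles) and JVM2 (squares); HMGA2 is drawn open because its value chose the set, and IGF2BP1 had no test. LIN28B (-5.51) and IGF2BP3 (-5.42) lie far below 0 in JVM2, while IGF2BP2 (0.93) and IGF2BP3 (0.30) lie above 0 in MEC1.

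Other reported let-7 targets moved in both directions. Of 41 listed genes outside the set, 33 were tested in MEC1, where 10 were higher, 18 lower and 5 did not pass, with a median log2 fold change of -0.14. In JVM2, 31 were tested, 4 were higher, 12 lower and 15 did not pass, with a median of -0.18. The shares called, 84.8% and 51.6%, stand beside 41.7% and 29.3% of all genes. Of the 18 lower genes in MEC1, 3 (TGFBR1, PBX3 and NR6A1) lie on the long arm of chromosome 9. Beyond its heterochromatic block, 337 of the 471 genes tested on this arm were lower in MEC1, 14 higher and the median change -0.39 (log2). In JVM2 the same stretch had 38 of 360 genes lower and a median of 0.00. The part of this shift in the values of the 3 genes was not tested. The list holds many regulators of the cell cycle and of B-cell differentiation, and the higher members in MEC1 included the MYC oncogene (log2 fold change 0.50, edgeR adjusted P = 2.0e-09) and the growth factor receptor IGF1R.

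The largest changes in the list were as follows. TRIM71 held 44, 68 and 61 reads in JVM2-CTRL and 254, 229 and 245 in JVM2-2B17 cells. The populations were far apart, with means of 5.73 ± 1.17 and 25.5 ± 2.36 CPM (SD, n = 3), and TRIM71 rose by 2.15 (SE 0.14) on the log2 scale, or 4.43-fold (edgeR adjusted P = 2.9e-07). TRIM71 thus rose in the population in which LIN28B fell, and the 3′ UTRs of both carry several let-7 matches. In MEC1 TRIM71 was near silent, with 3, 2 and 7 reads in CTRL and 4, 5 and 5 in 2B17 cells, and was not tested. Its effects in the lines differed by -1.83 (SE 0.65, edgeR interaction adjusted P = 0.036).

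PRDM1, which encodes the plasma cell regulator BLIMP1, fell in both lines. It held 96, 84 and 79 reads in MEC1-CTRL against 28, 27 and 32 in MEC1-2B17 cells, and 950, 980 and 901 in JVM2-CTRL against 354, 239 and 309 in JVM2-2B17 cells. The log2 fold changes of PRDM1 were -1.46 (SE 0.17) in MEC1 and -1.58 (SE 0.085) in JVM2, with no overlap in either line (edgeR adjusted P = 8.3e-07 and 4.5e-08). The D-type cyclins CCND1 and CCND2, which drive entry into the cell cycle, fell in MEC1 by 1.21 (SE 0.086) and 1.24 (SE 0.063) on the log2 scale (edgeR adjusted P = 1.4e-09 and 1.4e-11). The integrin subunit gene ITGB3 fell in MEC1 by 0.97 (SE 0.054, adjusted P = 4.8e-11). In JVM2 the cell cycle factor E2F2 fell by 0.51 (SE 0.069, adjusted P = 1.3e-04) and the survival gene BCL2L1 by 0.48 (SE 0.09, adjusted P = 0.0015).

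The machinery that makes and uses let-7 changed about as often as genes in general. Of 22 listed genes, 20 were tested in MEC1, with 4 higher, 3 lower and a median log2 fold change of -0.01. In JVM2, 21 were tested, with 2 higher, 5 lower and a median of 0.02. The shares called were 35% and 33.3%, against 41.7% and 29.3% of all genes. In MEC1 the exact test of edgeR called 2 higher. In JVM2, 4 were called higher without replicate 2 of JVM2-2B17, and 3 lower without replicate 1 of JVM2-CTRL. The largest change in MEC1 was in ZCCHC6 (TUT7), a terminal uridylyl transferase that tails let-7 precursors. It held 5227, 4783 and 4449 reads in MEC1-CTRL and 2711, 2590 and 2532 in MEC1-2B17 cells, and fell by 0.78 on the log2 scale (SE 0.032, edgeR adjusted P = 9.0e-13). TNRC6B, a scaffold of the silencing complex, fell there by 0.25 (SE 0.038, adjusted P = 3.2e-05). In JVM2, ZCCHC6 had a log2 fold change of 0.07 and did not pass. ZCCHC6 lies in the stretch of chromosome 9 that was lower as a whole in MEC1, and the part of that shift in its fall was not tested.

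Of the 4 Argonaute genes, whose proteins carry the mature microRNA, AGO1 and AGO3 passed in both lines. AGO2 (log2 fold changes -0.09 and -0.18) and AGO4 (-0.05 and 0.11) passed in neither. AGO1 fell in both lines, by 0.12 (SE 0.04, edgeR adjusted P = 0.02) in MEC1 and by 0.35 (SE 0.089, adjusted P = 0.011) in JVM2 on the log2 scale. AGO3 rose by 0.18 (SE 0.05, adjusted P = 0.0076) in MEC1 and fell by 0.41 (SE 0.078, adjusted P = 0.0019) in JVM2, a difference of 0.59 (SE 0.093, edgeR interaction adjusted P = 5.0e-05). DROSHA, the nuclease that starts microRNA processing in the nucleus, fell by 0.35 in JVM2 (SE 0.11, adjusted P = 0.036).

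Mature let-7 was not measured. The libraries came from total RNA depleted of ribosomal RNA, and reads counted on the short precursor genes come from longer transcripts that cover them. Of 20 listed precursor and host genes, 7 were tested in MEC1, with none higher, 2 lower and a median of -0.08 (log2), and 3 in JVM2, of which none passed. The shares called were 28.6% and 0%, against 41.7% and 29.3% of all genes, over few genes. In JVM2, 0 of the 3 had an unadjusted P below 0.05 with the quasi-likelihood test, with the exact test of edgeR or with DESeq2, and in MEC1 0 were higher by the same measures. MIRLET7F1 (chr9:94176347-94176433) held 18, 17 and 11 reads in MEC1-CTRL and 6, 7 and 6 in MEC1-2B17 cells, a log2 fold change of -1.15 (SE 0.35, edgeR adjusted P = 0.012). MIRLET7F1 passed the count filter only through the CTRL libraries, where it is high. For it being tested and being lower are thus linked, and its call, 1 of the 2 lower ones, is no support. MIRLET7D, in the same cluster, held 45, 42 and 39 reads against 22, 31 and 39, which overlap (log2 fold change -0.34, adjusted P = 0.23). This cluster lies in the same stretch of chromosome 9, and the part of its shift in the MIRLET7F1 value was not tested. The call of MIRLET7F1 was lost with DESeq2 (adjusted P = 0.093) and without replicate 2 of MEC1-CTRL (adjusted P = 0.053), in a range of 0.0089 to 0.093 over 13 alternatives, and requiring 10 counts in every library removed it.

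MIR99AHG, the host transcript of MIRLET7C on chromosome 21, held 233, 200 and 186 reads in MEC1-CTRL and 137, 169 and 141 in MEC1-2B17 cells (log2 fold change -0.36, SE 0.11, edgeR adjusted P = 0.01). That call was lost without replicate 1 of MEC1-2B17 (-0.28, adjusted P = 0.061), in a range of 0.0029 to 0.061 over 14 alternatives. In JVM2 it held 9, 16 and 11 reads in CTRL and 1, 0 and 0 in 2B17 cells. It was below the filter there, passed it and was called lower in 6 alternatives, and its pooled counts of 36 and 1 gave a ratio of 34.3 with a 95% counting interval of 5.78 to 1392. The other hosts tested, HUWE1 for MIR98 and MIRLET7F2, WDR82 for MIRLET7G and MIRLET7BHG for MIRLET7A3 and MIRLET7B, had log2 fold changes of -0.01, -0.03 and -0.08 in MEC1 and -0.12, -0.05 and -0.41 in JVM2. None of them passed. MIR98 itself held 13, 7 and 10 reads against 15, 13 and 4 in MEC1 (log2 fold change 0.20, adjusted P = 0.74).

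Genes of fetal growth outside the set also differed by line. Of 20 listed genes, 9 were tested in MEC1, with 3 higher, 3 lower and a median of 0.33 (log2), and 5 in JVM2, with 1 higher, 3 lower and a median of -0.46. The shares called were 66.7% and 80%, against 41.7% and 29.3% of all genes, over few genes. Without replicate 2 of MEC1-CTRL or replicate 2 of MEC1-2B17, 1 was lower in MEC1. The lists overlap: TRIM71 is on those of let-7 targets, microRNA machinery and fetal growth, IGF1R and PLAGL2 on the first and last, and AGO1 on the first and second. The imprinted zinc finger gene PLAGL1 rose in MEC1 from 1.84 to 4.32 CPM (log2 fold change 1.22, SE 0.13, edgeR adjusted P = 2.4e-07), as did the surface glycoprotein gene CD24 (0.76, SE 0.10, adjusted P = 9.5e-06). IGF1R, the receptor of insulin-like growth factors, held 1510, 1310 and 1247 reads in MEC1-CTRL and 1938, 1872 and 1939 in MEC1-2B17 cells and rose by 0.61 (SE 0.045, adjusted P = 2.7e-09). The oncofetal surface protein gene TPBG fell in MEC1 by 0.24 (SE 0.069, adjusted P = 0.0086).

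In JVM2, the imprinted genes MEST and PEG10 fell by 1.26 (SE 0.17) and 0.65 (SE 0.11) on the log2 scale (edgeR adjusted P = 1.6e-04 and 5.6e-04), and the zinc finger gene PLAGL2 by 0.46 (SE 0.15, adjusted P = 0.036). The gene of the list that rose there was TRIM71, described above. Among 8 other high mobility group genes (HMGB and HMGN) tested in each line, 1 passed in MEC1 and 2 in JVM2, with medians of 0.00 and -0.04. The shares called were 12.5% and 25%, against 41.7% and 29.3% of all genes, over few genes. HMGN3 fell in MEC1 by 0.18 (SE 0.037, adjusted P = 7.1e-04), HMGN2 fell in JVM2 by 0.29 (SE 0.057, adjusted P = 0.002) and HMGN4 rose there by 0.29 (SE 0.067, adjusted P = 0.0061). These are abundant nucleosome-binding proteins, and the changes called in them were small.

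**Figure D3:**
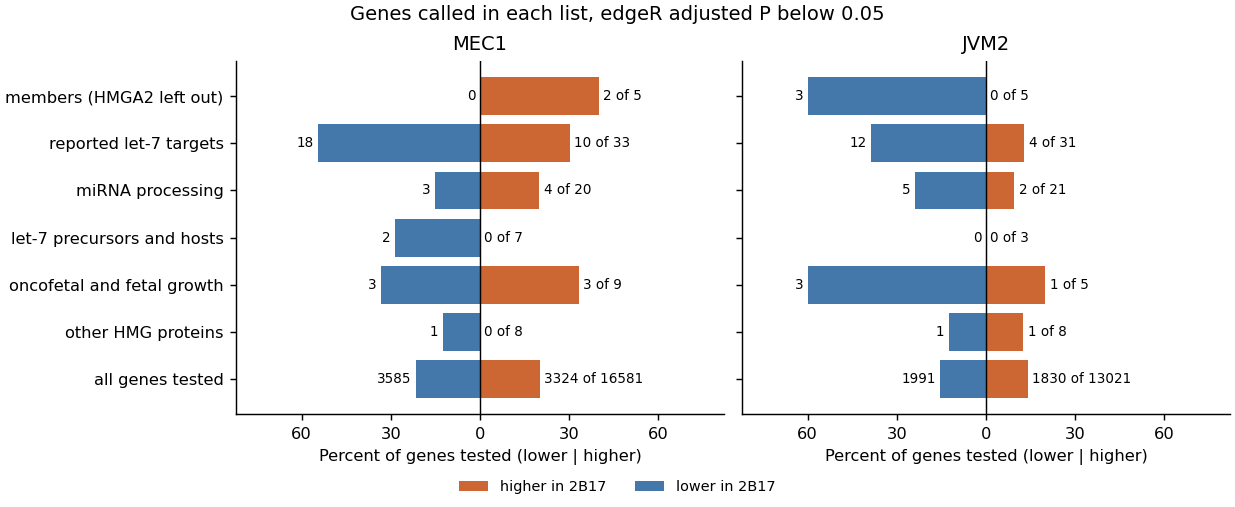
Share of the genes tested that were called higher (orange, to the right) or lower (blue, to the left) in 2B17 cells of MEC1 and JVM2, by list, with the counts printed beside each bar and all genes tested as the last bar. The reported let-7 targets include 18 lower and 10 higher genes of 33 in MEC1, and 12 lower and 4 higher of 31 in JVM2.

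Genes with at least 1 let-7 match in their 3′ UTRs, taken from the genome and not from any list, were called in both directions in each line. Leaving out the 8 genes of the set, 1352 genes with at least 1 match were tested in MEC1, of which 24% were higher and 26.5% lower, against 23.1% and 25.2% of 10891 genes with no match. Their median log2 fold change was -0.001, the same as that of the genes with no match. In JVM2, 12.8% of 1257 genes with a match were higher and 16.7% lower, against 14.6% and 15.7% of 10058 genes with none, with medians of -0.026 and -0.0. With 2 or more matches, 26.1% of 165 genes in MEC1 were higher and 26.1% lower, with a median of 0.002. In JVM2, 12.7% of 150 such genes were higher and 19.3% lower, with a median of -0.033. With 3 or more matches, a part of these genes, the median was 0.074 over 25 genes in MEC1 and 0.04 over 24 genes in JVM2. In JVM2 the genes with any match and those with 2 or more were thus more often lower than higher, unlike those with 3 or more. These are descriptions without a test.

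Among those genes with 3 or more matches, 7 of 25 (28%) were higher and 5 (20%) lower in MEC1, against 23.1% and 25.2% of genes with no match. In JVM2, 6 of 24 (25%) were higher and 1 (4.17%) lower, against 14.6% and 15.7%. The uneven split in JVM2 rests on few genes and was not tested. With the set included, LIN28B, HMGA2 and TRIM71 were those with a fitted absolute log2 fold change above 2 among the genes that passed the filter. IGF2BP1, below the filter, had 2.28 in MEC1 without it. The value of HMGA2 chose the set, and LIN28B passed the filter only through the CTRL libraries, where it is high. Changes of this size were not limited to genes with matches: 220 genes besides HMGA2 were called in MEC1 with an absolute log2 fold change of at least 2. These values are therefore no support for a link with the number of matches. PTAFR, the receptor of platelet-activating factor with 3 matches, went in opposite directions (-0.83 in MEC1, edgeR adjusted P = 4.3e-12, and 1.45 in JVM2, adjusted P = 3.0e-06). The orphan nuclear receptor gene NR6A1, with 5 matches, had log2 fold changes of -0.27 and 0.34 (adjusted P = 3.2e-04 and 0.021), the first of them within the shift of chromosome 9, and HIC2, with 4, had 0.21 and -0.19, of which the first passed (adjusted P = 0.027). PTAFR was singled out after its values were seen.

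**Figure D4:**
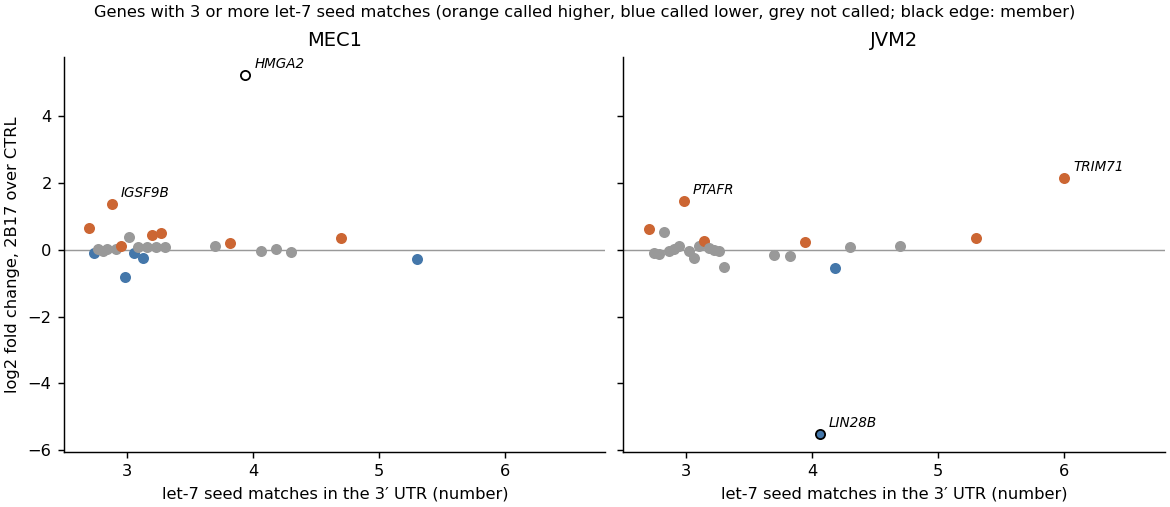
Log2 fold change of 2B17 over CTRL against the number of let-7 seed matches in the 3′ UTR, for each tested gene with 3 or more matches in MEC1 (left) and JVM2 (right); points within a number of matches are spread sideways, orange points were called higher, blue lower and grey neither, and a black edge marks the set. HMGA2 (5.23, MEC1, drawn open because its value chose the set), LIN28B (-5.51, JVM2, let in by its CTRL libraries alone) and TRIM71 (2.15, JVM2) are the points beyond 2. Most of the other genes lie near 0.

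Changes around HMGA2 on chromosome 12 went in both directions. Transcripts at the gene were higher in MEC1-2B17 cells, and its well-covered neighbors changed little. Within 1 Mb of HMGA2, 16 genes were listed in MEC1 and 9 tested, of which 2 were higher and 2 lower, with a median log2 fold change of 0.12. RPSAP52, a pseudogene transcript that overlaps the start of HMGA2 on the opposite strand, held no reads in the MEC1-CTRL replicates and 5, 4 and 6 in the MEC1-2B17 replicates. Against a floor of 3 counts over the population this was at least 5.38-fold higher. A short transcript inside HMGA2 on its own strand (ENSG00000277945) held 0, 0 and 1 reads against 8, 8 and 8. Since the strand setting of the counting is not given in the sources used here, reads of HMGA2 and of RPSAP52 where they overlap cannot be told apart. LINC02425 (listed as RP11-366L20.4), 61434 bases beyond the end of HMGA2, held no reads in MEC1-CTRL and 15, 13 and 5 in MEC1-2B17 cells, at least 11.8-fold higher against the same floor.

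Protein-coding neighbors of HMGA2 moved less, or downward. LEMD3, LLPH and TMBIM4 had log2 fold changes of -0.04, 0.11 and 0.12 in MEC1 and did not pass. The negative regulator of interleukin-1 receptor signaling IRAK3 rose by 0.23 (SE 0.044, edgeR adjusted P = 2.4e-04) and the DNA helicase gene HELB by 0.16 (SE 0.064, adjusted P = 0.049), and TBC1D30 fell by 0.47 (SE 0.14, adjusted P = 0.0095). MSRB3, a methionine sulfoxide reductase gene 333030 bases before HMGA2, held 64, 50 and 50 reads in MEC1-CTRL and 3, 10 and 7 in MEC1-2B17 cells. It fell by 2.90 on the log2 scale (SE 0.29, adjusted P = 1.4e-07). MSRB3 passed the count filter through its CTRL libraries, where it is high, so that being tested and being lower are linked. GRIP1, a scaffold protein gene 381140 bases after HMGA2, held 8, 13 and 11 reads against 2, 0 and 4 and was not tested.

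FLJ41278 held 2, 0 and 0 reads against 8, 3 and 5 in MEC1, a ratio of 8.61 with a 95% counting interval of 2.03 to 77.2. The remaining transcripts near HMGA2, LLPH-AS1, RP11-305O6.3, RP11-305O6.4 and RP11-745O10.4, were at or below 25 reads in every MEC1 library. LLPH-AS1 and RP11-305O6.4 were tested and not called. RP11-305O6.3, with 3, 4 and 3 reads against 1, 1 and 1, and RP11-745O10.4, with 1, 2 and 1 against 1, 4 and 4, were not tested. In JVM2, 10 genes of the same window were listed and 8 tested, with 1 higher (IRAK3, log2 fold change 0.78, SE 0.12, edgeR adjusted P = 5.1e-04), 2 lower and a median of -0.03. GRIP1 held 457, 487 and 394 reads in JVM2-CTRL and none in JVM2-2B17 cells, at least 425-fold lower against 3 counts, and HELB fell by 0.69 (SE 0.078, adjusted P = 3.2e-05). TBC1D30, LLPH, TMBIM4, LEMD3 and FLJ41278 did not pass there, and MSRB3 (8, 13 and 4 reads against 3, 4 and 2) was not tested.

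**Figure D5:**
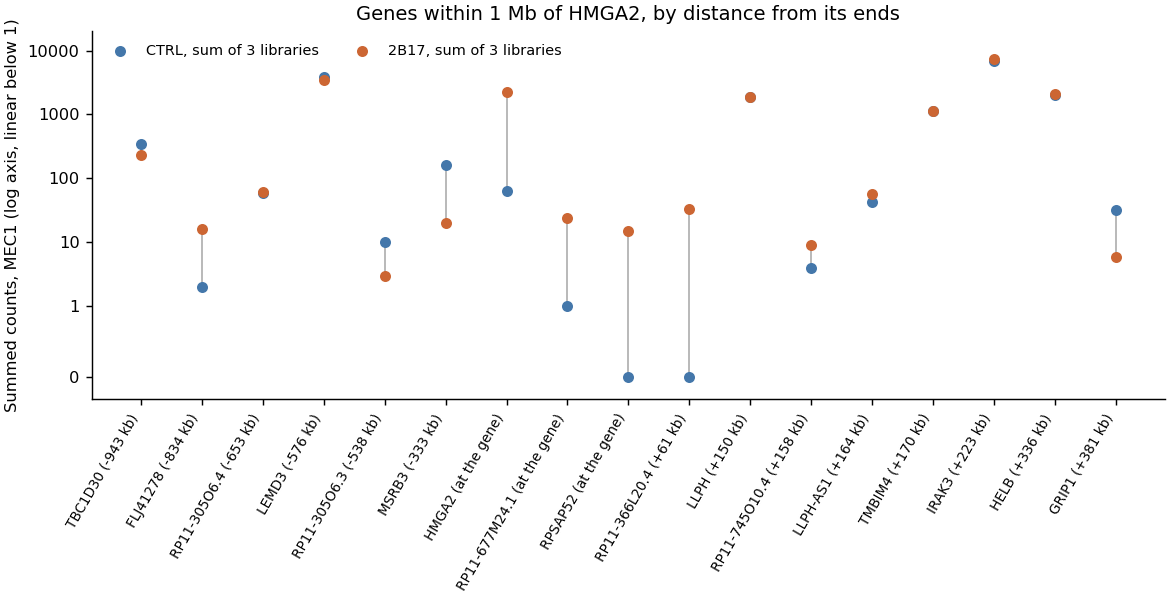
Counts summed over the 3 MEC1-CTRL (blue) and the 3 MEC1-2B17 (orange) libraries for HMGA2 and the 16 listed genes within 1 Mb, ordered by distance in kb from the ends of HMGA2 (log axis, linear below 1). HMGA2 (64 and 2250 reads), the transcripts at the gene and LINC02425 (listed as RP11-366L20.4) are higher in 2B17, MSRB3 (164 and 20) is lower, and the well-covered genes LEMD3, LLPH, TMBIM4, IRAK3 and HELB lie close together.

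Around LIN28B, the neighbors tested in JVM2 were lower or did not pass. PRDM1, which fell there by 1.58 on the log2 scale, lies 910131 bases beyond the end of LIN28B. Of the 4 genes listed within 1 Mb, all were tested and 2 were lower, against 15.3% of all genes tested in JVM2, over few genes. The lower ones were PRDM1, with the values above, and the peptidase gene PREP, which fell by 0.34 on the log2 scale (SE 0.077, edgeR adjusted P = 0.006). HACE1 (0.07) and the autophagy gene ATG5 (-0.13) did not pass. In MEC1, where LIN28B was not listed, BVES, 13490 bases beyond its end, held 77, 81 and 67 reads in CTRL and 21, 18 and 5 in 2B17 cells and fell by 2.24 (SE 0.26, adjusted P = 1.2e-06). BVES passed the count filter through its CTRL libraries, where it is high, so that being tested and being lower are linked. Around IGF2BP3 in JVM2, 13 genes within 1 Mb were tested, with 3 higher, 2 lower and a median log2 fold change of 0.08. Among all genes tested in JVM2, 14.1% were higher and 15.3% lower. The lower ones near IGF2BP3 were RAPGEF5 (log2 fold change -1.08) and AC005682.5 (-0.66). The higher ones were NUPL2 (0.31), TOMM7 (0.29) and EEF1A1P6 (0.64). Whether the fall of IGF2BP3 was shared by its neighborhood was not tested. MALSU1, which overlaps IGF2BP3, had a log2 fold change of 0.12 in JVM2 and did not pass.

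The genes whose pattern over the 6 MEC1 libraries was most like that of HMGA2 were DNAH17-AS1, RNF152, TRAT1, CTNND2 and CNKSR2. Likeness was the Pearson correlation of log2(CPM + 0.5) among 220 other genes called in MEC1 with an absolute log2 fold change of at least 2, and it lay between 0.9988 and 0.9995. Since the 6 libraries form 2 populations, any gene with a large and even rise gives a value of this size. RNF152, a lysosomal ubiquitin ligase gene, held 160, 152 and 121 reads in MEC1-CTRL and 3070, 2882 and 2849 in MEC1-2B17 cells. TRAT1, an adaptor of the T-cell receptor, held 2, 0 and 1 reads against 283, 258 and 243. CTNND2, a delta-catenin gene of neural tissue, held 15, 16 and 9 reads against 298, 308 and 289 in MEC1, whereas in JVM2 it held 9, 16 and 17 reads in CTRL and none in 2B17 cells. The scaffold gene CNKSR2 held 2, 0 and 1 reads against 70, 75 and 64 in MEC1. The antisense transcript DNAH17-AS1 rose in MEC1 from 6.64 to 31.5 CPM and was at 0.621 and 0.701 CPM in JVM2-CTRL and JVM2-2B17 cells.

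UGT2B17 itself was higher in the 2B17 cells of both lines. It held 447, 371 and 346 reads in MEC1-CTRL and 766, 673 and 637 in MEC1-2B17 cells (log2 fold change 0.94, SE 0.069, edgeR adjusted P = 2.0e-09). In JVM2 it held 299, 281 and 258 reads in CTRL and 389, 402 and 315 in 2B17 cells (0.48, SE 0.11, adjusted P = 0.0048). An exact permutation test of 3 against 3 gave P = 0.1 in each line, the smallest it can give. Libraries held 31762649 to 37744991 counts in MEC1 and 8809179 to 11231330 in JVM2, so that low genes were measured less precisely in JVM2. All 10 B-cell markers were listed in both lines, with summed levels of 4351 to 4575 CPM over the MEC1 libraries and 3445 to 4369 over the JVM2 libraries. Single B-cell markers changed under these sums, with 8 of 10 called in MEC1 (3 higher, 5 lower) and 6 of 10 in JVM2 (4 higher, 2 lower). These shares, 80% and 60%, stand beside 41.7% and 29.3% of all genes tested. CR2, the complement receptor of mature B cells, fell 47.1-fold in JVM2, from 161, 148 and 153 reads in CTRL to 3, 4 and 2 in 2B17 cells (edgeR adjusted P = 5.5e-09), and rose by 0.82 on the log2 scale in MEC1 (SE 0.036, adjusted P = 1.9e-12). In JVM2 CR2 passed the count filter only through the CTRL libraries, where it is high, so that being tested and being lower are linked. Summed markers of T and NK cells, 8 of 10 listed in MEC1, were 78.4 to 81.2 CPM in MEC1-CTRL and 56.2 to 57.5 in MEC1-2B17 cells. In JVM2, with 2 of 10 listed, they were 46.5 to 50.3 CPM in CTRL and 33.7 to 41.4 in 2B17 cells. The sums did not overlap in either line. The fall in MEC1 came mostly from GNLY (19.6 to 4.94 CPM) and TRAC (18.7 to 11.5), while CD247 was called higher (0.868 to 2.02 CPM, edgeR adjusted P = 2.3e-05). Of the 5 tested there, 1 was higher and 2 lower. Of the 2 tested in JVM2, TRAC alone was called, lower (46.7 to 37.2 CPM). Of 8 myeloid markers, 5 were listed in MEC1 and 3 in JVM2. Their sums were 2.35 to 2.92 CPM in MEC1-CTRL and 4.74 to 5.3 in MEC1-2B17 cells. For JVM2 the sums were 5.41 to 6.58 CPM in CTRL and 11.1 to 13.8 in 2B17 cells. A single gene, ITGAM, made up most of both rises. Its means were 1.29 (CTRL) and 3.89 CPM (2B17) for MEC1, and 4.87 and 11.3 CPM for JVM2. Of the 3 myeloid markers tested in MEC1, ITGAM was called higher and CSF1R lower (log2 fold change -0.71, edgeR adjusted P = 0.041). The number called lower there moved in 8 alternatives. ITGAM was the 1 myeloid marker tested in JVM2. Mesenchymal markers, 3 of 9 in MEC1 and 4 of 9 in JVM2, summed to 22.1 to 24.1 CPM in MEC1-CTRL and 12.1 to 13.3 in MEC1-2B17 cells. In JVM2 they summed to 335 to 346 CPM in CTRL and 324 to 349 in 2B17 cells. The sums came mostly from VIM, which lymphocytes also express, and COL1A2, COL3A1, PDGFRA, DCN and LUM were in neither table. VIM fell in both lines, by 1.12 in MEC1 and 0.16 in JVM2 (log2, edgeR adjusted P = 7.0e-11 and 0.037). PDGFRB rose in both, by 0.57 and 0.63 (adjusted P = 0.025 and 8.2e-04), and THY1 rose in JVM2 by 2.27 (adjusted P = 2.7e-06). Pluripotency markers, 4 of 7 and 2 of 7, summed to at most 1.7 CPM in any library, and SOX2 was in neither table. The part of these shifts in the changes of the 8 genes was not tested, and in bulk RNA fewer cells with a transcript and less of it per cell cannot be told apart.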

How the data were processed

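Counts were analysed for 12 libraries of 2 cell lines, with groups and replicate numbers taken from the labels. The authors depleted ribosomal RNA, sequenced paired ends, trimmed reads with Trimmomatic and aligned them to hg38 with TopHat2 2.0.14. They deposited raw HTSeq read counts per Ensembl gene, with normalized values in separate columns. The strand setting and annotation release are not given in the sources used here. No gene in either table has fewer than 10 counts summed over its 6 libraries. The 12 deposited columns of normalized values and the authors' fold changes and P-values (edgeR and DESeq2) were not used. Replicates are described as biological. No pair of libraries was identical.

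Each line was fitted separately with edgeR 4.0.16 (R 4.3.3): filterByExpr (minimum count 10, minimum total 15), TMM scaling, the quasi-likelihood F-test and Benjamini-Hochberg adjustment over all genes tested, called below 0.05. SEs were derived from the F statistic. CPM are TMM-scaled. Line differences were tested as the interaction of line and population over genes in both tables. The method was tested on simulated data. Ratios of pooled counts have exact 95% intervals and, with 0 counts, a floor of 3 counts over the population, and both cover counting error only. Positions, transcript lengths and 3′ UTRs came from GENCODE v44 on GRCh38, which holds 21798 of the MEC1 and 16799 of the JVM2 identifiers, and microRNAs from RefSeq.

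The genes and lists were chosen with earlier results of these data known. Genes were named by a rule: all 8 of the set, UGT2B17, up to 4 genes per list and line with the largest called change without overlap, the let-7 precursor and host genes tested, all listed genes within 1 Mb of HMGA2, and the 5 patterns most like HMGA2. MYC, PTAFR, NR6A1, HIC2, TGFBR1, PBX3, AGO2, AGO4, CR2, the chromosome 9 stretch and the genes near LIN28B and IGF2BP3 were added after their values were seen. Alternatives were RLE factors, library size only, no filter, at least 10 counts in every library, a replicate block, the exact test of edgeR, DESeq2 1.42.0, both tools together, each replicate left out, and 8-base matches.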

Additional observations from a re-analysis of the deposited data

Results flagged for a closer look

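In 19 of 30 named genes with a value in both lines, the difference between 2B17 and CTRL cells was not the same in MEC1 and JVM2 by the edgeR interaction test. Most of these genes were named for a large change in 1 line, so that the share is not evidence of anything beyond that choice. Cell type markers are left out of these 30 genes. Values are the log2 fold change in MEC1 minus that in JVM2. Within the set these were IGF2BP3 (5.97) and DICER1 (0.26).

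Among the reported let-7 targets, the difference was -0.95 for CCND1, -0.93 for CCND2, 0.37 for E2F2, -1.83 for TRIM71, 0.33 for BCL2L1 and -1.88 for ITGB3. CCND1 and CCND2 were lower in the 2B17 cells of both lines, with log2 fold changes of -0.25 and -0.31 in JVM2, and fell further in MEC1. ITGB3 had 10 and 18 reads in all in the JVM2 populations. In the microRNA machinery and precursor genes it was 0.43 for DROSHA, 0.59 for AGO3, -0.84 for ZCCHC6, which lies in the chromosome 9 stretch that was lower in MEC1, and 4.55 for MIR99AHG, which rests on 36 and 1 reads in JVM2.

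For fetal-growth genes it was 1.03 for PLAGL1, 1.59 for MEST, 0.54 for PEG10 and 3.30 for CD24, the last with 13 and 2 reads in JVM2. For nucleosome-binding genes it was 0.26 for HMGN2 and -0.21 for HMGN4. UGT2B17 itself differed by 0.47, with the larger rise in MEC1, where the controls carried an shRNA against it.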

How the results depend on the processing

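IGF2BP2 and IGF2BP3 in MEC1 kept direction and call in each alternative of the processing, as did LIN28B and IGF2BP3 in JVM2 wherever they were tested. Where the filter applied, LIN28B and IGF2BP3 passed it in JVM2 only through the CTRL libraries, where they are high. Being tested and being lower are thus linked for them, and that their calls were kept is no support. HMGA2 in MEC1 ranged from 5.20 to 5.28 on the log2 scale. Requiring 10 counts in every library removed LIN28B and IGF2BP3 from JVM2, which left 1 member called there and 1 between the lines. Leaving out 1 replicate at a time, 3 to 4 members were called in MEC1, where IGF2BP1 then passed the filter, 2 to 4 in JVM2 and 1 to 3 between the lines. IGF2BP1 passed it only through the 2B17 libraries, where it is high, and its calls there are no support. In the same fits 5936 to 6606 genes were called in MEC1, 2687 to 4541 in JVM2 and 4231 to 5063 between the lines. DESeq2 called 5803 genes in MEC1 and 2974 in JVM2. Same-numbered replicates did not deviate together (r from -0.074 to 0.053 in MEC1 and from -0.0096 to 0.13 in JVM2), and not every replicate correlated best with its own number. With the replicate block 6928 genes were called in MEC1 and 4369 in JVM2, and ARID3B differed between the lines (0.31, adjusted P = 0.04). IGF2BP1, again let in by its 2B17 libraries alone, was tested and called in MEC1 with the block (2.27, adjusted P = 2.6e-04). The block changed no other call in the set. Without JVM2-2B17 replicate 3 the ARID3B difference was 0.41, and its adjusted P ranged from 0.011 to 0.14 over 17 alternatives. With the other scalings or 8-base matches, the median log2 fold change of genes with a let-7 match ranged from -0.011 to 0.007 for MEC1, and for JVM2 from -0.032 to -0.023. Genes near the floor (IGF2BP1, and IGF2BP3 in JVM2) are limited by depth, and the minimum of 10 reads in the deposited tables sets what can be said of genes absent from them.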
